A study of Homo sapiens with 20 samples.

Results

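Antisense noncoding RNAs named after the protein-coding gene they lie beside or across were examined in the human embryonic stem cell line H1 during differentiation toward endoderm. Of 419 features whose symbol ends in -AS and a digit, the 88 whose raw counts summed to 50 or more over 12 poly(A) RNA-seq libraries were selected on that sum and set beside the coding gene in their name. The libraries fell into 6 groups of 2: clone KO1, clone KO2 and unedited WT cells, each at day 4 in RPMI with B27 and Activin A at 50 ng/ml, and the same 3 lines at day 0 in the feeder-free stem cell medium mTeSR1. KO1 and KO2 are labelled as lacking DIGIT, a long noncoding RNA, and each is 1 clone. No counted feature had that name, so DIGIT itself was not analysed here, and which cells lack it is taken from the labels. Nothing in the labels says that the 2 libraries of a group came from separate cultures, so every p-value measures only the spread between these libraries.

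An antisense RNA is transcribed from the DNA strand opposite a coding gene, either across its body or outward from a shared start region, where one promoter region can serve both directions. Such RNAs are usually much less abundant than messenger RNAs and are often spliced and polyadenylated. Some have been shown to act on their partner or on other genes, while for most no role is known. As a class they can report activity at a locus in a stem cell that is leaving pluripotency, when Nodal and Activin signalling switches on endoderm genes.

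All 88 antisense RNAs and all 88 partners were matched by name in RefSeq, which calls 83 of the antisense RNAs long noncoding RNAs and all 88 partners protein coding. TP73-AS1 and CCDC74B-AS1 are transcribed pseudogenes in RefSeq, under the symbols GFOD3P and MED15P9, with their strand not known here. The annotated spans of antisense RNA and partner overlapped in 76 pairs and did not in 11, and for HNRNPU-AS1 the name now belongs to the record of HNRNPU itself. Where the strand of both was known, for 60 pairs, 29 were head to head and overlapping, 9 head to head without overlap, 16 tail to tail and overlapping, 1 tail to tail without overlap and 5 had one gene within the other. Among pairs with a promoter window of 300 bases for both, 18 had windows that overlapped each other on opposite strands. In RefSeq 6 antisense RNAs now carry a divergent transcript symbol (-DT), FLVCR1-AS1, BOLA3-AS1, CTBP1-AS1 and BAIAP2-AS1 among them.

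The promoters of 6 antisense RNAs whose start region is shared with the partner are shown because their RNAs passed a test described here while the partners did not, or moved the other way. They come from RefSeq (GRCh38.p14), run 5′ to 3′ on the strand of the antisense RNA, and have in capitals the stretch that also lies in the promoter window of the coding partner. The windows are chr14:95157438-95157737 on the plus strand for DICER1-AS1, chr1:212858089-212858388 on the minus strand for FLVCR1-AS1 and chr4:1249190-1249489 on the plus strand for CTBP1-AS1. Those of the others are chr2:74147731-74148030 on the plus strand for BOLA3-AS1, chr10:28532305-28532604 on the minus strand for WAC-AS1 and chr17:81034670-81034969 on the minus strand for BAIAP2-AS1.

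DICER1-AS1: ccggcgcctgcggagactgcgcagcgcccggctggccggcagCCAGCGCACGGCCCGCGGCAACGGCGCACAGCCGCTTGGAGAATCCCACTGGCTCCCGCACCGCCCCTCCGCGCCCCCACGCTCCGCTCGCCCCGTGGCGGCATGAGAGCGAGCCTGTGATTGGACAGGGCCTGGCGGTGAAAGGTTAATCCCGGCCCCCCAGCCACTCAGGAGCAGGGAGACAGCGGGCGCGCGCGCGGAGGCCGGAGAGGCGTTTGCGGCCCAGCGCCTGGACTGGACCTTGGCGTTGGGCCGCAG

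FLVCR1-AS1: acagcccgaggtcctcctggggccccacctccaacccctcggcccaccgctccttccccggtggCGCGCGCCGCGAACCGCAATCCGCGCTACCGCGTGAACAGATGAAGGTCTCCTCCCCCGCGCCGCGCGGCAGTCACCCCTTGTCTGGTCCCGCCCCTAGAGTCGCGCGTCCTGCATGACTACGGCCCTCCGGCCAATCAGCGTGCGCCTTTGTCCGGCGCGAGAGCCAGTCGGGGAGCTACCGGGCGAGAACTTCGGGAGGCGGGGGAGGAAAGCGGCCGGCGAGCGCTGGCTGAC

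CTBP1-AS1: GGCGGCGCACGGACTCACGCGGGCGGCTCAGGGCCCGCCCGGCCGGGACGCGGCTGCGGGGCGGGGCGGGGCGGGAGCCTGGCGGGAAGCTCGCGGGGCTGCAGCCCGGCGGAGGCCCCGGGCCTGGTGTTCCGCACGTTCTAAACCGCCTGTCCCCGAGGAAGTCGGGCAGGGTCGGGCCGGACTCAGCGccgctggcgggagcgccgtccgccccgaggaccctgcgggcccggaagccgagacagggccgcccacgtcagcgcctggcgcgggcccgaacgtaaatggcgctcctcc

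BOLA3-AS1: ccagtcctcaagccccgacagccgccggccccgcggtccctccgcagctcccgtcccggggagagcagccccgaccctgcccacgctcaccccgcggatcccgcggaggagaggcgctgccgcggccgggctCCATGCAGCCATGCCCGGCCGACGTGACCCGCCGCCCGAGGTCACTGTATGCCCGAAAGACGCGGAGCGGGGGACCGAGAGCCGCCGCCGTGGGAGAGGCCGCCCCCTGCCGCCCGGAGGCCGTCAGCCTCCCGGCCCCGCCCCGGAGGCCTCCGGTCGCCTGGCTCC

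WAC-AS1: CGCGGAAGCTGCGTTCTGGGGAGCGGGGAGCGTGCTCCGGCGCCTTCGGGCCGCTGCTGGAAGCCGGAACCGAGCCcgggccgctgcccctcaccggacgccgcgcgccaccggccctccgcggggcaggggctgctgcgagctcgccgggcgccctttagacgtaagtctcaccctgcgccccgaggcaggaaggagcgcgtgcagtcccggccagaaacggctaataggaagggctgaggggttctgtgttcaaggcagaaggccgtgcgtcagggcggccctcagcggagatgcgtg

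BAIAP2-AS1: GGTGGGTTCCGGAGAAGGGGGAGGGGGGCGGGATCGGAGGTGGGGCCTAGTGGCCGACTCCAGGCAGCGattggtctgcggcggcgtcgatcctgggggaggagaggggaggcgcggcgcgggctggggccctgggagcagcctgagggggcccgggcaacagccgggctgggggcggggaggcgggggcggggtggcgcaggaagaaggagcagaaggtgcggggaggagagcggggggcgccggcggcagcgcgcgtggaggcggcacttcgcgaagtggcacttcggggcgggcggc

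The shared stretch was 258 bases for DICER1-AS1, 236 for FLVCR1-AS1, 191 for CTBP1-AS1, 168 for BOLA3-AS1, 76 for WAC-AS1 and 69 for BAIAP2-AS1. All 6 windows were rich in G and C, between 72.0% and 79.3%. The letters GGGCGG, the core of an SP1-type site, occurred in each of the 6 on one strand or the other, and CCAAT occurred in those of DICER1-AS1, FLVCR1-AS1 and BAIAP2-AS1. Over the 72 antisense RNAs with a RefSeq promoter window, the median GC content was 63.3%, against 58.3% over all 27305 windows. In the same windows GGGCGG was present in 54.2%, CCAAT in 33.3% and TATAAA in 8.33%, against 44.6%, 35.7% and 11.95% of all windows, counting both strands and any overlap between motifs. A match says only that the letters are there. The counts themselves were made on hg19.

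Depth was 9942016 to 21394547 counts assigned to genes per library, and the members together took 0.0407% to 0.0507% of them. Their expression was low and uneven. Over the 12 libraries the median antisense RNA was at 0.832 CPM (counts per 1e6 library counts, with TMM factors), and FGD5-AS1 alone held 23.6% of all member counts. Of the 419 antisense symbols, 99 had no count and 232 had 1 to 49. Just inside the threshold were INHBA-AS1 and ITGB2-AS1, with 51 counts each, and just outside CACNA1C-AS1 and HAS2-AS1, with 49 each. The 2 KO1 day 0 libraries differed from each other more than any other pair, with a chi-square of 20.1 per feature against 1.89 to 3.83 in the other groups, and counts of antisense RNAs called that move by over 1.5 times without one of them are given beside the result. A filter on low counts kept 61 of the 88 for testing, together with 81 of their 88 partners. The 27 antisense RNAs it left out had 51 to 86 counts in all. The tested antisense RNAs had a median of 1.37 CPM, against 20.7 CPM over all 16792 features tested.

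The most abundant antisense RNA did not pass in any comparison. FGD5-AS1, named for a guanine nucleotide exchange factor of endothelial cells, had 107 and 109 CPM in KO1, 111 and 107 in KO2 and 99.0 and 102 in WT cells at day 4, and 100.02 and 112, 103 and 102, and 95.01 and 96.1 in KO1, KO2 and WT cells at day 0. Its log2 fold change in WT cells, day 4 over day 0, was 0.07 ± 0.08 (SE, edgeR adjusted p = 0.467). After it came THAP9-AS1, WAC-AS1, OIP5-AS1, TP73-AS1, HNRNPU-AS1 and DHRS4-AS1, with means over the 12 libraries of 52.5, 48.4, 41.7, 35.0, 18.2 and 10.1 CPM. HNRNPU-AS1 did not pass in any comparison either. LY86-AS1 had 642 counts over the 12 libraries although its partner LY86, which encodes a lymphocyte antigen, had 0 counts in every library. LY86-AS1 was named after its values were seen.

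Differentiation was compared first within unedited cells. Between day 4 and day 0 in WT cells, 12 of 61 antisense RNAs rose and 10 fell at an edgeR adjusted p under 0.05, beside 24.3% of all features tested that rose and 25.4% that fell. The share called was 36.1% in either direction for antisense RNAs, against 49.6% for all features and 51.9% for the tested partners. The lower abundance of the antisense RNAs moves with this difference, and its part was not tested. By at least 2-fold, 7 rose and 5 fell, beside 7.72% and 10.6% of all features. The median log2 fold change of the 61 was 0.16, against −0.00 over all features. Of the 81 partners tested, 15 rose and 27 fell. Single libraries moved these counts: without WT day 0 replicate 1 the number of antisense RNAs that rose was 6, and without WT day 4 replicate 1 the number that fell was 5. Without KO1 day 0 replicate 1, 14 fell.

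EGFLAM-AS4, named for an extracellular matrix protein of the photoreceptor synapse, rose most. It had 6.03 and 3.93 CPM in the WT day 4 libraries and no count in either WT day 0 library. With the WT day 0 libraries together put at a floor of 3 counts, it was at least 39.9-fold higher at day 4 (edgeR adjusted p = 1.65e-06). EGFLAM itself rose too, with 9.38 and 7.09 CPM at day 4 against 0.387 and 0.777 at day 0, a log2 fold change of 3.73 ± 0.29 (adjusted p = 5.62e-08). Their annotated spans overlap. The kit was stranded, but whether the counting used strand is not given in the sources used here, so reads of antisense RNA and partner cannot be told apart where the spans overlap.

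KIAA1984-AS1, now CCDC183-AS1 in RefSeq, had the largest rise among those with counts at both days. It had 2.75 and 1.998 CPM at day 4 and 0.194 and 0.212 CPM at day 0 in WT cells, a log2 fold change of 3.47 ± 0.46 (edgeR adjusted p = 1.51e-05). Its partner, which overlaps it tail to tail, stayed between 1.34 and 2.14 CPM in these 4 libraries and did not pass (0.44 ± 0.30, adjusted p = 0.246). SH3BP5-AS1, named for a regulator of Rab GTPases, had 3.28 and 2.71 CPM at day 4 against 0.872 and 0.989 at day 0 (1.66 ± 0.36, adjusted p = 0.00135). SH3BP5 differed by −0.02 ± 0.14 in the same cells.

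CTBP1-AS1, which starts beside the transcriptional corepressor CTBP1, had 11.6 and 13.2 CPM at day 4 and 7.55 and 6.15 CPM at day 0 in WT cells (0.87 ± 0.18, edgeR adjusted p = 0.000705). ASB16-AS1 had 10.8 and 11.99 CPM at day 4 and 6.78 and 6.64 CPM at day 0 (0.77 ± 0.15, adjusted p = 0.000689), while ASB16 was too low to test. The day 4 libraries of all 12 that rose lay above their day 0 libraries. This largely follows from their selection by the same comparison, and the share over all features was not counted. For the 5 just described the call was kept under each of 17 alternatives.

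**Figure D1:**
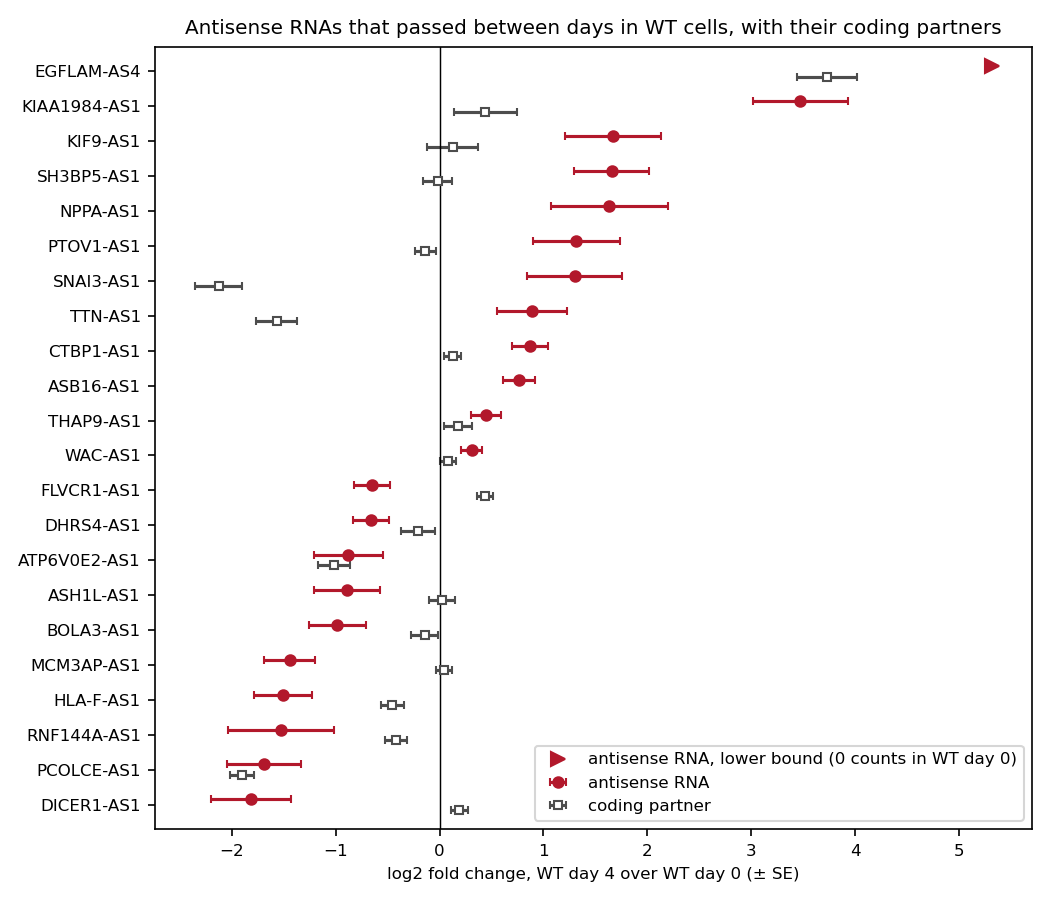
Log2 fold change in WT cells, day 4 over day 0 (horizontal axis, ± SE), for the 22 antisense RNAs that passed (red circles) and their coding partners (open squares, where tested). The red triangle for EGFLAM-AS4 is a lower bound, since it had 0 counts in WT cells at day 0. SNAI3-AS1, TTN-AS1 and FLVCR1-AS1 lie on the other side of 0 from their partners.

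The other 7 rises were each lost when a single library was left out. KIF9-AS1, named for a kinesin, rose by log2 1.67 ± 0.46, but missed the threshold without WT day 0 replicate 1 (1.17, edgeR adjusted p = 0.0659) or WT day 4 replicate 1 (1.45, adjusted p = 0.0525). NPPA-AS1, across the atrial natriuretic peptide gene, rose by 1.63 ± 0.56, and was lost without WT day 0 replicate 2 (adjusted p = 0.197) or either day 4 library (0.0706 and 0.0745). PTOV1-AS1 rose by 1.32 ± 0.42, and was lost without WT day 0 replicate 1 (0.97, adjusted p = 0.116) or WT day 4 replicate 2 (0.99, adjusted p = 0.144). THAP9-AS1 and WAC-AS1 are abundant and changed little, by 0.45 ± 0.15 and 0.31 ± 0.10. Both calls were lost without either WT day 0 library or WT day 4 replicate 2, with adjusted p between 0.0678 and 0.181 for THAP9-AS1 and between 0.0606 and 0.108 for WAC-AS1. SNAI3-AS1 and TTN-AS1 are described with their partners. With DESeq2 NPPA-AS1, PTOV1-AS1, SNAI3-AS1 and TTN-AS1 missed the threshold (adjusted p = 0.104, 0.0750, 0.0630 and 0.124).

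DICER1-AS1 fell furthest. Its partner DICER1, the ribonuclease that cuts microRNA precursors, has a promoter window that shares the stretch shown in capitals above. DICER1-AS1 had 0.534 and 0.451 CPM at day 4 against 1.45 and 1.98 CPM at day 0 in WT cells, a log2 fold change of −1.81 ± 0.38 (edgeR adjusted p = 0.00101). DICER1 had 141 and 152 CPM at day 4 against 125 and 133 at day 0, and did not pass (0.19 ± 0.08, adjusted p = 0.0718). The libraries of both RNAs separated by day, in opposite directions.

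MCM3AP-AS1, which overlaps the tail of the mRNA export factor gene MCM3AP, had 1.37 and 2.45 CPM at day 4 against 5.23 and 5.37 CPM at day 0 in WT cells (−1.44 ± 0.24, edgeR adjusted p = 0.000151), while MCM3AP differed by 0.04 ± 0.08. HLA-F-AS1, named for a nonclassical class I histocompatibility gene, had 1.68 and 1.87 CPM at day 4 against 4.75 and 5.37 at day 0 (−1.51 ± 0.28, adjusted p = 0.000357). BOLA3-AS1, beside a gene for mitochondrial iron-sulfur cluster assembly, had 2.52 and 2.51 CPM at day 4 against 4.94 and 5.02 at day 0 (−0.98 ± 0.27, adjusted p = 0.00718), and BOLA3 differed by −0.14 ± 0.13. These calls and those of DICER1-AS1 and PCOLCE-AS1 were kept under each of 17 alternatives.

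A further 5 falls were lost with single libraries. DHRS4-AS1 fell by 0.66 ± 0.17 on the log2 scale and FLVCR1-AS1 by 0.65 ± 0.17, and both missed the threshold without WT day 4 replicate 1 (edgeR adjusted p = 0.0759 and 0.0800). RNF144A-AS1 fell by 1.53 ± 0.51 and was lost without WT day 0 replicate 1 (adjusted p = 0.168) or either WT day 4 library (0.106 and 0.0520). ASH1L-AS1, beside a histone methyltransferase gene, fell by 0.89 ± 0.31 and was lost without WT day 0 replicate 1 (adjusted p = 0.148) or either WT day 4 library (0.106 and 0.0888). ATP6V0E2-AS1 fell by 0.88 ± 0.34, and its call was lost without any 1 of the 4 WT libraries (adjusted p between 0.0506 and 0.262). With DESeq2 RNF144A-AS1, ASH1L-AS1 and ATP6V0E2-AS1 missed it as well (adjusted p = 0.137, 0.119 and 0.216).

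Antisense RNAs were then set beside their partners in the 57 pairs with both tested. In WT cells 5 pairs passed in the same direction and 3 in opposite directions, between day 4 and day 0. In 12 pairs the antisense RNA alone passed, in 20 the partner alone and in 17 neither. With DESeq2, 3 pairs passed in the same and 1 in opposite directions. Without either KO1 day 0 library the counts were 8 and 5, and without WT day 4 replicate 1 they were 3 and 1. In the clones 10 pairs passed in the same and 6 in opposite directions in KO1, and 5 and 4 did in KO2. Of all features tested, 58.4% passed in either direction in KO1, 50.7% in KO2 and 49.6% in WT cells. How many pairs of unrelated features would pass together was not counted. Across pairs the rank correlation of the log2 fold changes was 0.15 in KO1, −0.01 in KO2 and 0.23 in WT cells (Spearman's rho, n = 57 each). In WT cells Pearson's r without EGFLAM-AS4, which had 0 counts in 1 group, was 0.13. Both members of a pair come from the same libraries, and some may share reads or share a promoter window, so these values only describe the pairs.

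**Figure D2:**
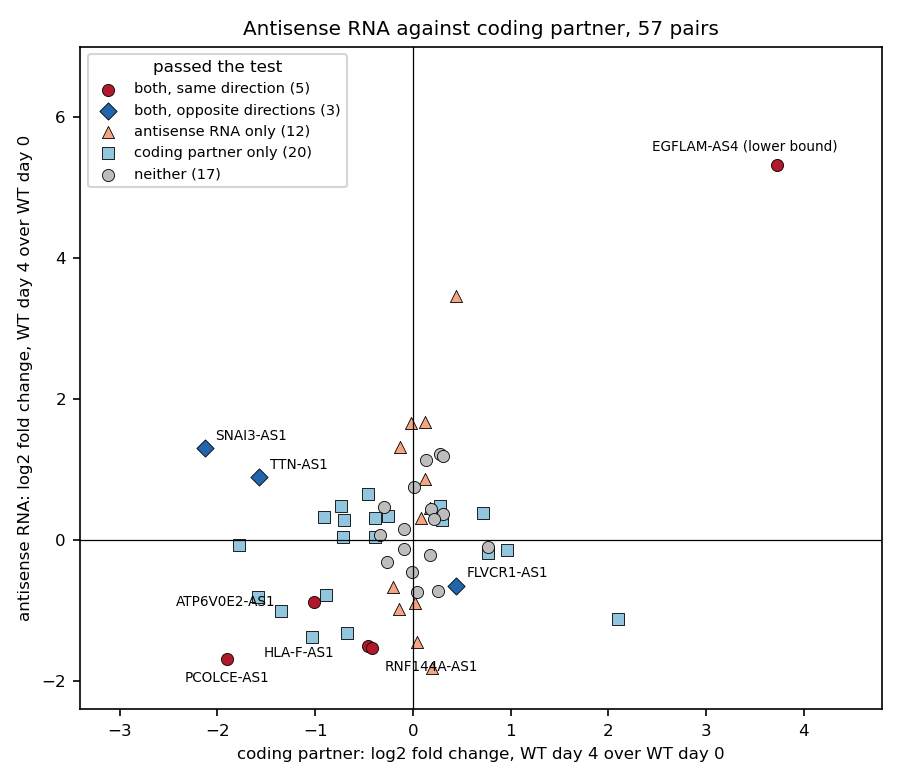
Log2 fold change in WT cells, day 4 over day 0, of the antisense RNA (vertical axis) against its coding partner (horizontal axis) for 57 pairs, marked by which of the pair passed; EGFLAM-AS4 is drawn at its lower bound. In 5 pairs both passed in the same direction, in 3 in opposite directions, in 12 the antisense RNA alone passed and in 20 the partner alone.

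The pairs that moved together were EGFLAM-AS4 with EGFLAM, which rose, and 4 that fell. PCOLCE-AS1, named for an enhancer of procollagen processing, had 0.839 and 1.10 CPM at day 4 against 3.58 and 2.83 CPM at day 0 in WT cells (−1.69 ± 0.35, edgeR adjusted p = 0.000945). PCOLCE had 11.3 and 12.2 CPM at day 4 against 45.1 and 43.2 at day 0 (−1.90 ± 0.12, adjusted p = 3.38e-09). The other 3 were HLA-F, which changed by −0.46 ± 0.11, the ubiquitin ligase gene RNF144A, by −0.42 ± 0.10, and the proton pump subunit gene ATP6V0E2, by −1.01 ± 0.15, each with its antisense RNA. Without WT day 4 replicate 1, 3 pairs passed in the same direction, and without KO1 day 0 replicate 1, 8 did. The call of HLA-F was lost without WT day 0 replicate 1 (−0.29, edgeR adjusted p = 0.0535) and that of RNF144A without WT day 4 replicate 2 (−0.31, adjusted p = 0.0555).

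In 3 pairs the antisense RNA and its partner passed in opposite directions. SNAI3, a zinc finger factor of the Snail family, had 1.68 and 2.96 CPM at day 4 against 10.8 and 9.89 CPM at day 0 in WT cells (−2.13 ± 0.22, edgeR adjusted p = 1.58e-06). SNAI3-AS1 had 1.45 and 1.74 CPM at day 4 against 0.194 and 0.989 CPM at day 0 (1.30 ± 0.46, adjusted p = 0.0278). The lowest of these 4 values, in WT day 0 replicate 1, sets much of the size: without that library the change of SNAI3-AS1 was 0.69 (adjusted p = 0.200), and the call was also lost without either WT day 4 library (0.0515 and 0.130). Without WT day 0 replicate 1 or either WT day 4 library, 1 pair passed in opposite directions, and without either KO1 day 0 library 5 did.

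TTN, which encodes the giant sarcomere protein titin, had 5.64 and 4.90 CPM at day 4 against 14.7 and 16.4 CPM at day 0 in WT cells (−1.57 ± 0.20, edgeR adjusted p = 1.06e-05). TTN-AS1 had 2.06 and 3.48 CPM at day 4 against 1.36 and 1.62 CPM at day 0 (0.89 ± 0.34, adjusted p = 0.0385). The call of TTN-AS1 was lost without either WT day 0 library (adjusted p = 0.155 and 0.0969), without WT day 4 replicate 2 (0.45, adjusted p = 0.397) and with upper-quartile scaling (0.0502).

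FLVCR1-AS1 and FLVCR1, a heme and choline transporter gene, are transcribed away from each other from the shared stretch printed above, and their annotated spans do not overlap. FLVCR1-AS1 had 6.18 and 8.06 CPM at day 4 against 11.04 and 11.4 CPM at day 0 in WT cells. FLVCR1 had 148.1 and 159 CPM at day 4 against 114 and 112 CPM at day 0 (0.44 ± 0.08, edgeR adjusted p = 0.000261). The antisense share of the counts of the pair was 4.00% and 4.81% at day 4 and 8.80% and 9.18% at day 0 in WT cells. The same split by day was seen in the clones, with 3.74% to 4.83% at day 4 and 9.05% to 11.3% at day 0.

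The share of a pair's counts is not corrected for length, so it serves only to compare groups. For SNAI3-AS1 it was 79.1% and 73.1% in KO1, 22.2% and 20.8% in KO2 and 46.3% and 37.0% in WT cells at day 4, and between 1.75% and 16.8% in the 6 libraries at day 0. TP73-AS1, named for a member of the p53 family, made up 92.1% to 95.7% of its pair at day 4 and 81.8% to 87.0% at day 0. TP73 fell in WT cells by 1.78 ± 0.23 on the log2 scale (edgeR adjusted p = 1.07e-05), while TP73-AS1 differed by −0.07 ± 0.10. For PCOLCE-AS1, whose partner moved with it, the shares at day 4 and day 0 overlapped.

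**Figure D3:**
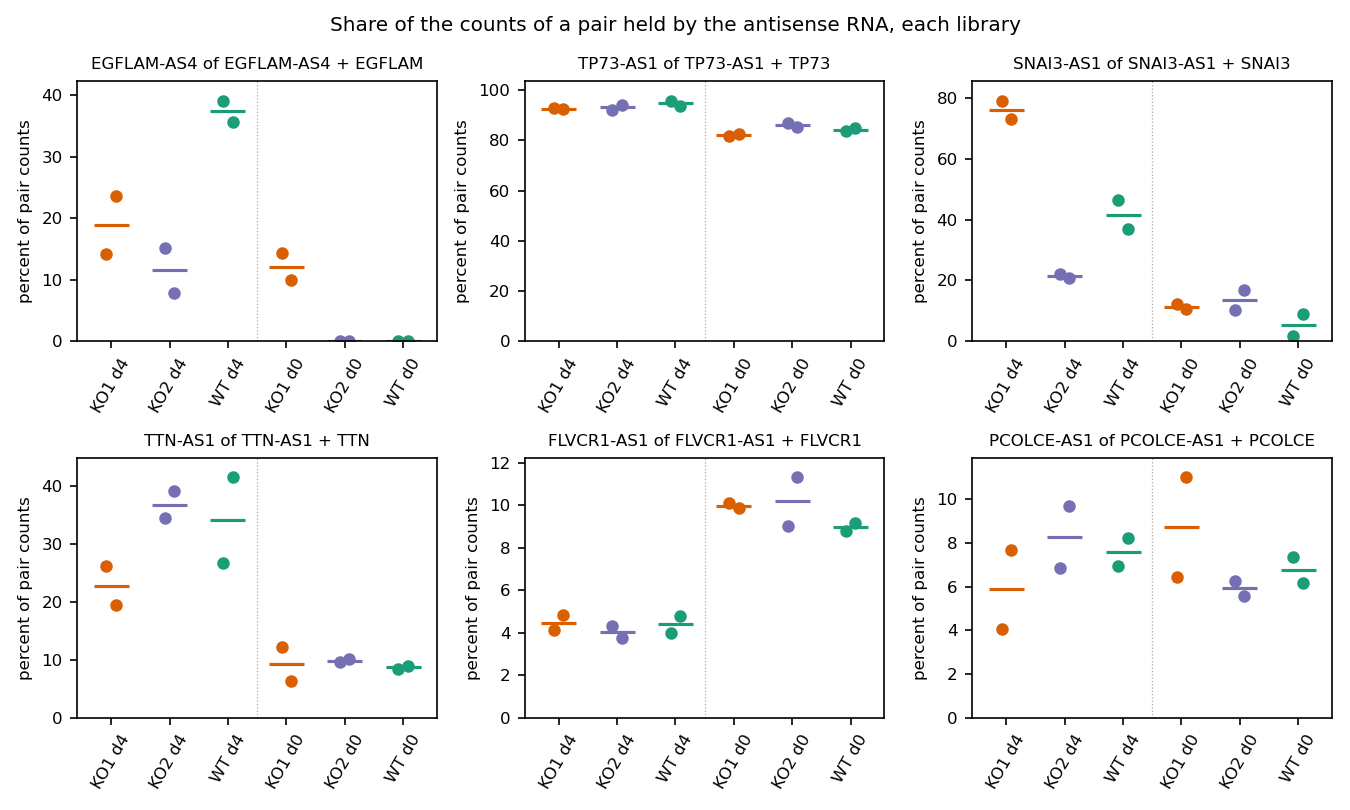
Percent of the counts of a pair held by the antisense RNA (vertical axis, not corrected for length) in each library (points; lines are group means) of KO1, KO2 and WT cells at day 4 and day 0. The shares of SNAI3-AS1, TTN-AS1 and TP73-AS1 are higher at day 4, that of FLVCR1-AS1 is lower at day 4 in all lines, and that of PCOLCE-AS1 overlaps between days.

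The clones were compared between the same days. In KO1, 11 of 61 antisense RNAs rose and 14 fell, beside 29.1% and 29.3% of all features. In KO2, 7 rose and 11 fell, beside 25.0% and 25.7% of all features. Without KO1 day 4 replicate 2 the number that fell in KO1 was 8, and without the first or the second KO1 day 0 library it was 19 or 9. In all 3 lines 5 rose, namely EGFLAM-AS4, KIAA1984-AS1, NPPA-AS1, CTBP1-AS1 and WAC-AS1, and 6 fell in all 3, namely DICER1-AS1, HLA-F-AS1, BOLA3-AS1, DHRS4-AS1, FLVCR1-AS1 and RNF144A-AS1. These are 8.20% and 9.84% of the tested antisense RNAs, against 13.8% and 15.9% of all features. Over the 3 lines 30 of the 61 (49.2%) passed at least once, beside 75.2% of all features.

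DICER1-AS1 had 0.173 and 0.275 CPM at day 4 against 1.59 and 2.14 at day 0 in KO1 (−2.99 ± 0.43, edgeR adjusted p = 2.42e-05). It had 0.321 and 0.402 CPM at day 4 against 1.498 and 1.66 at day 0 in KO2 (−2.09 ± 0.43, adjusted p = 0.000882). DICER1 rose in both clones, by 0.38 ± 0.08 and 0.44 ± 0.08. In all 3 lines the 2 day 4 libraries of DICER1-AS1 lay below the 2 at day 0, and in all 3 those of DICER1 lay above.

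KIAA1984-AS1 was near the limit of counting at day 0. In KO1 it had 52 counts at day 4 and 3 at day 0, a ratio of 27.0 (exact 95% counting interval 8.74 to 135). In KO2 it had 1.20 and 1.20 CPM at day 4 against 0.187 and 0.294 at day 0 (2.29 ± 0.53, edgeR adjusted p = 0.0021). NPPA-AS1 rose by 4.28 ± 0.52 in KO1, with 2.24 and 1.93 CPM at day 4 against 0.165 and 0.0445 at day 0. EGFLAM-AS4 had 70 counts at day 4 and 2 at day 0 in KO1, a ratio of 54.5 (interval 14.5 to 459). In KO2 it had 8 counts at day 4 and none at day 0, at least 2.03-fold higher with day 0 put at 3 counts, and its call was lost without either KO2 day 0 library (adjusted p = 0.117 and 0.111) or KO2 day 4 replicate 1 (0.113). RNF144A-AS1, which fell, had 3 counts at day 4 and 14 at day 0 in KO2, a ratio of day 0 over day 4 of 6.12 (interval 1.71 to 33.2). Counting error is all that these intervals and floors cover. Each floor is 3 counts over the 2 libraries of a group together, and a higher floor would give a smaller bound. In KO2 the rise of NPPA-AS1 was 1.77 ± 0.63 and was lost without KO2 day 0 replicate 1 (adjusted p = 0.236) or KO2 day 4 replicate 2 (0.182).

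In both clones CD27-AS1 and TMEM51-AS1 passed as lower at day 4 than at day 0, and PSMD6-AS2 as higher. CD27-AS1, named for a receptor of the tumour necrosis factor family on lymphocytes, had a log2 fold change of −1.87 ± 0.38 in KO1, −1.78 ± 0.40 in KO2 and −0.73 ± 0.36 in WT cells (edgeR adjusted p = 0.000669, 0.00192 and 0.108). PSMD6-AS2, named for a proteasome subunit, had one of 1.55 ± 0.39 in KO1, 1.71 ± 0.51 in KO2 and 0.44 ± 0.40 in WT cells (adjusted p = 0.00316, 0.0116 and 0.382). Its day 0 means were 0.547 CPM in KO1 and 0.383 CPM in KO2, against 0.996 CPM in WT cells. Neither clone passed against WT at day 0. The KO2 call of PSMD6-AS2 was lost without either KO2 day 0 library (0.0675 and 0.0573) or KO2 day 4 replicate 2 (0.117). TMEM51-AS1, named for a transmembrane protein, had −2.07 ± 0.54 in KO1, −2.32 ± 0.55 in KO2 and −1.37 ± 0.57 in WT cells (adjusted p = 0.00406, 0.00264 and 0.0561), and its KO1 call was lost without KO1 day 4 replicate 2 (0.0874). The test of the difference in change between the mean of the clones and WT gave adjusted p = 0.140 for CD27-AS1, 0.152 for PSMD6-AS2 and 0.511 for TMEM51-AS1.

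**Figure D4:**
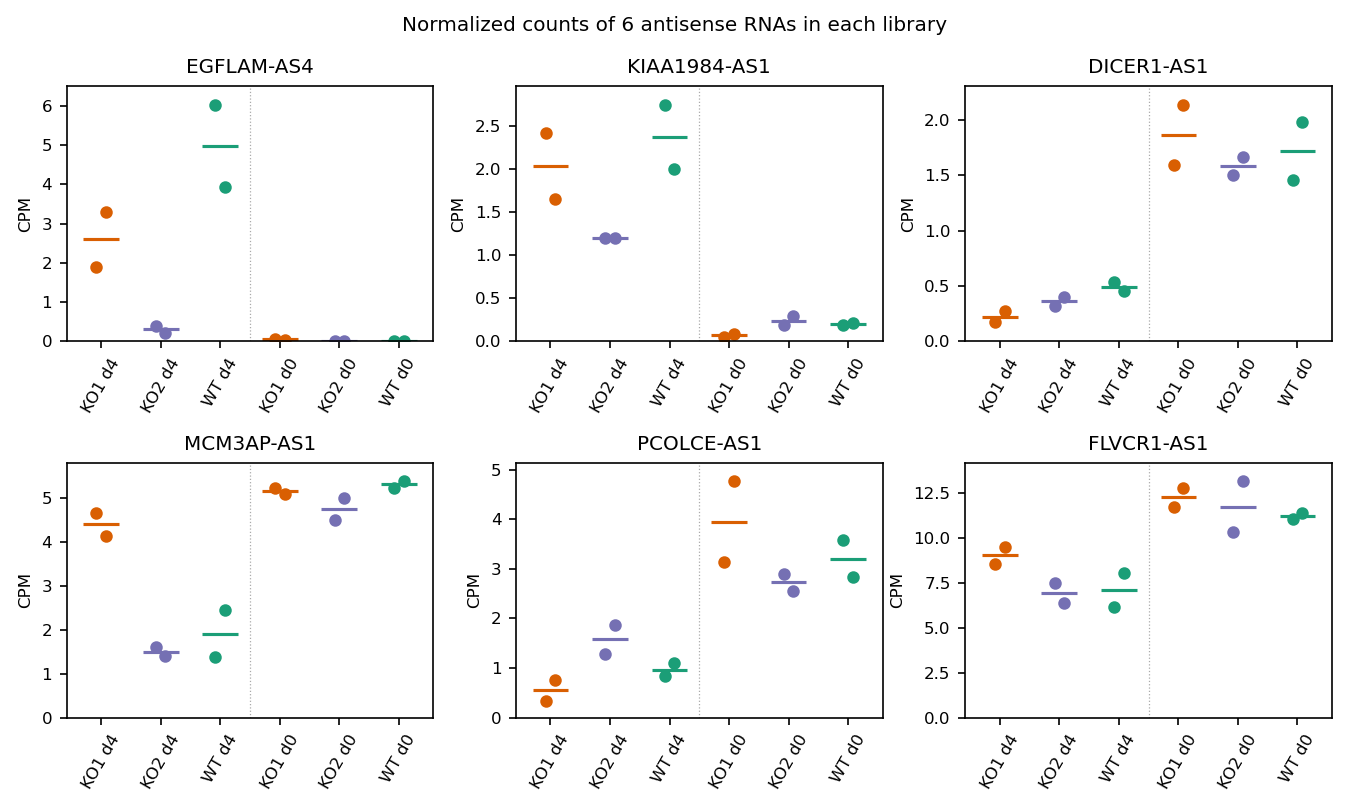
Level in CPM (vertical axis) of 6 antisense RNAs in each library (points; lines are group means) of KO1, KO2 and WT cells at day 4 and day 0. EGFLAM-AS4 is at or near 0 at day 0 and in KO2 at day 4, and MCM3AP-AS1 in KO1 at day 4 lies near the day 0 level.

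The clones were set against WT cells at day 4, which asks whether cells labelled as lacking DIGIT differ in these RNAs after differentiation. In the mean of the clones no antisense RNA was higher and 4 of 61 were lower, beside 11.3% and 12.6% of all features. At an unadjusted edgeR p under 0.05, 2 were higher and 10 lower, beside 3024 and 3086 of the 16792 features. DESeq2 called 0 higher and 1 lower, beside 1558 and 1686 of all features. The 4 were EGFLAM-AS4, PSMG3-AS1, BAIAP2-AS1 and ASB16-AS1. Without WT day 4 replicate 1 or KO1 day 4 replicate 1 the number lower was 1, EGFLAM-AS4, and without either KO1 day 0 library it was 6, with 1 higher. It was 2 without WT day 4 replicate 2 or either KO2 day 4 library. With the 4 KO libraries as 1 group, so that clone differences enter the spread, all 4 calls were lost.

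EGFLAM-AS4 had 1.90 and 3.30 CPM in KO1 and 0.401 and 0.201 CPM in KO2 at day 4, against 6.03 and 3.93 CPM in WT cells. The 3 groups did not overlap, and KO2 was lowest. The difference from WT was −2.47 ± 0.32 for the mean of the clones (edgeR adjusted p = 0.000123), −0.90 ± 0.31 for KO1 (adjusted p = 0.0560) and −4.04 ± 0.45 for KO2 (adjusted p = 2.71e-05). With the 4 KO libraries as 1 group it was −1.76 (adjusted p = 0.148). The KO2 call was kept under each of 17 alternatives.

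EGFLAM differed in the same clone. It had 11.5 and 10.7 CPM in KO1 and 2.25 and 2.34 CPM in KO2 at day 4, against 9.38 and 7.09 CPM in WT cells, and was lower in KO2 by 1.83 ± 0.22 on the log2 scale (edgeR adjusted p = 2.39e-05), whereas in KO1 it differed by 0.43 ± 0.18 (adjusted p = 0.113). EGFLAM-AS4 held 14.2% and 23.6% of the counts of the pair in KO1 and 15.2% and 7.89% in KO2, against 39.1% and 35.7% in WT cells. For the mean of the clones EGFLAM differed by −0.70 ± 0.17 (adjusted p = 0.0079), which made this the single pair of which both passed. Without WT day 4 replicate 1 the value of EGFLAM was −0.50 (adjusted p = 0.155), and when the 4 libraries of the clones were fitted as a single group it was −0.30 (adjusted p = 0.774), so that EGFLAM missed the threshold under each.

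Endoderm markers were lower in KO2 at day 4 as well. The summed level of SOX17, FOXA2, GATA6, GATA4, CXCR4, CER1 and EOMES at day 4 was 5363 and 5456 CPM in KO1 and 999 and 1238 CPM in KO2, against 4800.3 and 5321 CPM in WT cells, and none of the 7 was at 0. At day 0 the sum was between 5.72 and 13.6 CPM in all lines. CER1, a secreted inhibitor of Nodal and BMP ligands, makes up most of the sum, with means at day 4 of 4490.4 CPM in KO1, 866 CPM in KO2 and 4032 CPM in WT cells. In KO2 each of the 7 had a lower mean than in WT cells. In KO1, where EGFLAM-AS4 had a mean of 2.60 CPM against 4.98 CPM in WT cells, the sum was not lower, yet 5 of the 7 had a lower mean than in WT cells. Among these 5 were CXCR4, a chemokine receptor, with 55.6 CPM in KO1 against 152 CPM in WT cells, and the transcription factor GATA4, with 31.1 CPM against 68.1 CPM. CER1 and EOMES had higher means in KO1 than in WT cells. The marker means are over 2 libraries each and were not tested here. The part of the endoderm state in the low EGFLAM-AS4 of the clones was not tested, and in these bulk samples fewer cells of a type and less RNA per cell cannot be told apart.

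BAIAP2-AS1, which runs outward from the start of an actin regulator gene, had 5.35 and 6.81 CPM in KO1 and 6.74 and 6.89 CPM in KO2 at day 4, against 10.3 and 8.25 CPM in WT cells. Every KO library lay below both WT libraries. The difference for the mean of the clones was −0.51 ± 0.15 (edgeR adjusted p = 0.0204), while BAIAP2 differed by 0.10 ± 0.11. The call was lost without WT day 4 replicate 1 (−0.37, adjusted p = 0.246), KO1 day 4 replicate 1 (0.0687) or KO2 day 4 replicate 1 (0.0515), and with the 4 KO libraries as 1 group (0.0658).

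ASB16-AS1 had 8.54 and 9.91 CPM in KO1 and 8.35 and 7.29 CPM in KO2 at day 4, against 10.8 and 11.99 CPM in WT cells (−0.43 ± 0.13 for the mean, edgeR adjusted p = 0.0221). Its call was lost without either WT day 4 library (adjusted p = 0.0592 and 0.191), KO1 day 4 replicate 1 (0.0725) or KO2 day 4 replicate 2 (0.0808). PSMG3-AS1, named for a proteasome assembly chaperone, had 1.73 and 1.17 CPM in KO1 and 2.65 and 3.48 CPM in KO2, against 3.74 in each WT library (−0.83 ± 0.28, adjusted p = 0.0454). The call of PSMG3-AS1 was lost without any 1 of 10 libraries, the 2 KO1 day 0 libraries being the exceptions (adjusted p between 0.0528 and 0.175).

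Clone by clone, KO1 had 3 antisense RNAs higher and 3 lower than WT at day 4, beside 10.5% and 9.42% of all features, and KO2 had none higher and 5 lower, beside 13.5% and 14.5%. The counts at an unadjusted edgeR p under 0.05 were 6 higher and 7 lower for KO1, beside 2805 and 2605 of the 16792 features. For KO2 they were 3 higher and 11 lower, beside 3242 and 3286. DESeq2 called 0 and 2 for KO2, beside 1822 and 1943 of all features. The comparisons of both clones use the same WT libraries. Without WT day 4 replicate 1 the counts for KO1 were 0 higher and 1 lower. The number higher was 1 without WT day 4 replicate 2 or either KO1 day 4 library, the number lower was also 1 without KO1 day 4 replicate 1, and without either KO1 day 0 library the counts were 4 and 7. For KO2 the number lower was 1 without KO2 day 4 replicate 2, 2 without KO2 day 4 replicate 1 or WT day 4 replicate 2, 3 without WT day 4 replicate 1, and 9 without either KO1 day 0 library, with 2 higher. In KO1 the 3 higher were MCM3AP-AS1, NPPA-AS1 and OIP5-AS1, and the 3 lower PSMG3-AS1, BAIAP2-AS1 and TP73-AS1. In KO2 the 5 lower were EGFLAM-AS4, KIAA1984-AS1, TRAF3IP2-AS1, DHRS4-AS1 and ASB16-AS1.

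MCM3AP-AS1 had 4.66 and 4.13 CPM in KO1 and 1.60 and 1.41 CPM in KO2 at day 4, against 1.37 and 2.45 CPM in WT cells. KO1 stood apart from both, near the day 0 level of 4.50 to 5.37 CPM in the 6 libraries of that day. The difference from WT was 1.17 ± 0.25 for KO1 (edgeR adjusted p = 0.00398) and −0.37 ± 0.29 for KO2 (adjusted p = 0.380). Without WT day 4 replicate 1 that of KO1 was 0.83 (adjusted p = 0.0537). The mesoderm marker list, summed over TBX6, MESP1 and HAND1, was at 3.88 to 4.06 CPM in KO1 and 1.00 to 1.12 CPM in KO2 at day 4, against 1.22 to 1.37 CPM in WT cells. At day 0 the sum was 3.13 to 5.38 CPM in KO1, 3.04 to 4.03 in KO2 and 2.54 to 3.10 in WT cells. In KO1 the mean of TBX6 was lower at day 4 than at day 0, and those of MESP1 and HAND1 were higher. MESP1 and HAND1 had only 52 and 50 counts over the 12 libraries. None of the 3 was at 0 in any group, and the part of these markers was not tested. MCM3AP differed by −0.02 ± 0.08 in KO1 and 0.19 ± 0.08 in KO2.

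OIP5-AS1, an abundant RNA named for a centromere protein, had 48.9 and 47.5 CPM in KO1 and 37.3 and 42.9 CPM in KO2 at day 4, against 37.1 and 34.7 CPM in WT cells. Its KO1 difference of 0.43 ± 0.14 was just past the threshold (edgeR adjusted p = 0.0480) and was lost with RLE scaling (0.0517), with upper-quartile scaling (0.0652), and without any 1 of the 8 libraries of KO1 day 4, KO2 and WT day 4 (adjusted p between 0.0596 and 0.232). NPPA-AS1 in KO1 (1.18 ± 0.37, adjusted p = 0.0362) was lost without any 1 of the 4 libraries compared (adjusted p between 0.0960 and 0.183). TP73-AS1 had 28.4 and 25.8 CPM in KO1, against 35.9 and 33.1 CPM in WT cells (−0.35 ± 0.10, adjusted p = 0.0220), and was lost without either KO1 day 4 library (0.0571 and 0.188) or WT day 4 replicate 1 (0.136).

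In KO1 PSMG3-AS1 was lower by 1.39 ± 0.36 on the log2 scale (edgeR adjusted p = 0.0136) and BAIAP2-AS1 by 0.59 ± 0.18 (adjusted p = 0.0283). The first was lost without KO1 day 4 replicate 2 (adjusted p = 0.142) or either WT day 4 library (0.0621 and 0.0666), and the second without KO1 day 4 replicate 1 (0.229) or WT day 4 replicate 1 (0.210). TRAF3IP2-AS1, named for an adaptor of interleukin receptor signalling, had 3.69 and 3.61 CPM in KO2, against 5.95 and 5.54 CPM in WT cells (−0.65 ± 0.19, adjusted p = 0.0207). DHRS4-AS1 had 5.14 and 5.49 CPM in KO2, against 7.17 and 9.15 CPM in WT cells (−0.62 ± 0.19, adjusted p = 0.0238), and KIAA1984-AS1 was lower by 0.96 ± 0.31 (adjusted p = 0.0306). ASB16-AS1 was lower in KO2 by 0.55 ± 0.15 (adjusted p = 0.0121). Of these KO2 calls, TRAF3IP2-AS1 was lost without any 1 of the 4 libraries compared (adjusted p between 0.0574 and 0.115), DHRS4-AS1 without WT day 4 replicate 2 (0.217) or either KO2 day 4 library (0.120 and 0.0913), KIAA1984-AS1 without WT day 4 replicate 1 (0.206) or either KO2 day 4 library (0.115 and 0.137), and ASB16-AS1 without the second library of KO2 (0.129) or WT (0.0927) at day 4.

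**Figure D5:**
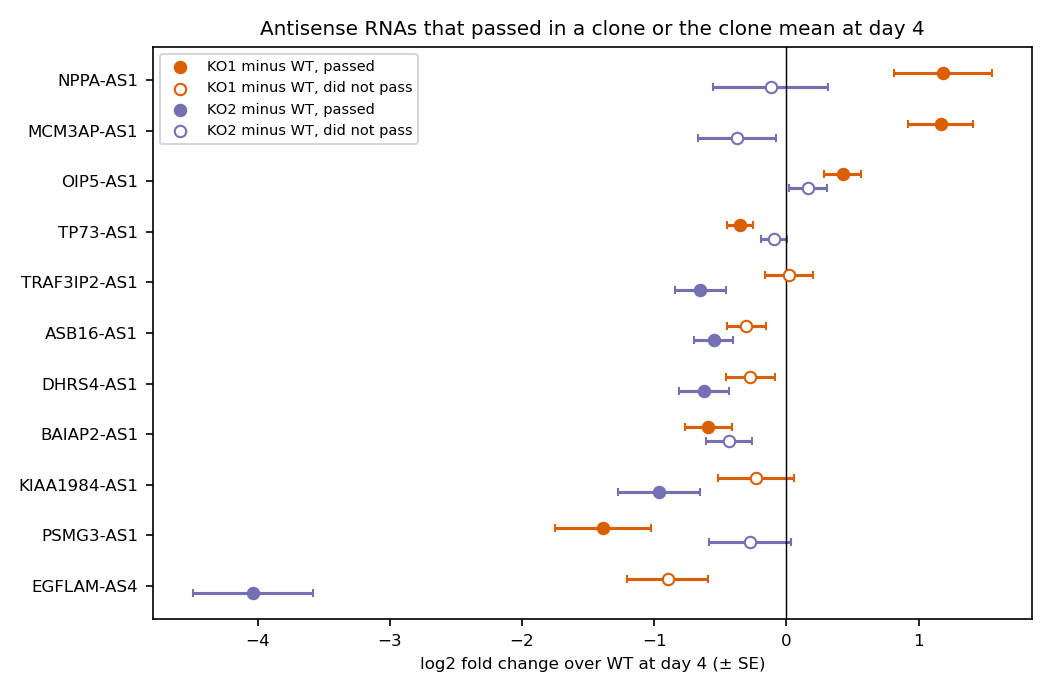
Log2 fold change over WT at day 4 (horizontal axis, ± SE) of KO1 and KO2 for the 11 antisense RNAs that passed in a clone or in the mean of the clones; filled points passed. EGFLAM-AS4 in KO2 is the furthest from 0, and NPPA-AS1 and MCM3AP-AS1 in KO1 are the highest.

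At day 0 no antisense RNA passed in either clone or in their mean, beside 0.0893% of all features higher and 0.191% lower for the mean, 0.0596% and 0.179% for KO1, and 0.0536% and 0.0893% for KO2. At an unadjusted edgeR p under 0.05, 2 antisense RNAs were higher and 1 lower in the mean, none in KO1, and 2 higher and 1 lower in KO2. Over all 16792 features these counts were 690 and 561 in the mean, 927 and 711 in KO1, and 445 and 346 in KO2. DESeq2 also called no antisense RNA. Of all features it called 32 higher and 38 lower in the mean, 21 and 39 in KO1, and 17 and 21 in KO2. Without KO1 day 0 replicate 1, which leaves a lone library in that group, some antisense RNAs passed as higher in KO1 than in WT at day 0. The share of all features that passed in that fit was not counted, so it cannot be set beside them.

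Whether the change between days differed between the mean of the clones and WT was tested directly. BAIAP2-AS1 alone passed, at −0.75 ± 0.21 (edgeR adjusted p = 0.0327), beside 7.27% of all features lower and 6.36% higher, or 13.6% in either direction. No antisense RNA passed as higher. At an unadjusted edgeR p under 0.05, 1 was higher and 8 lower, beside 2334 and 2411 of the 16792 features. DESeq2 called none either way, beside 866 higher and 954 lower of all features. Between days the log2 fold change of BAIAP2-AS1 was −0.39 ± 0.17 in KO1 and −0.37 ± 0.18 in KO2 (adjusted p = 0.0648 and 0.101), and 0.37 ± 0.17 in WT cells (adjusted p = 0.0963), so no line passed on its own. The call was lost without either WT day 0 library (adjusted p = 0.104 and 0.0978), WT day 4 replicate 1 (0.170), KO1 day 4 replicate 1 (0.0714), KO2 day 0 replicate 2 (0.0795) or either KO2 day 4 library (0.0628 and 0.0624). Leaving out 1 of the 2 KO1 day 0 libraries gave 6 lower (replicate 1 left out) or 3 lower (replicate 2 left out). For EGFLAM-AS4 this difference could not be estimated, because KO2 and WT cells had no counts at day 0.

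The partners were sorted into lists by the start of their symbol, which only roughly follows what they encode. Of the 88, 8 fell in a list of signalling ligands, receptors and transducers. A list of regulators of chromatin, DNA or RNA took 5, and one of developmental transcription factors took 1, SNAI3. EGFLAM, a matrix protein gene, fell in the signalling list, while INHBA, ASH1L, CTBP1 and DICER1 fell in none. Of the 6 tested antisense RNAs with a partner in the signalling list, 1 rose, EGFLAM-AS4, and none fell between day 4 and day 0 in WT cells. The shares over all features were 24.3% and 25.4%. Of the 5 with a partner in the list of chromatin, DNA or RNA regulators, none rose and 1 fell. At day 4, 2 of these 5 were higher in KO1 than in WT cells and none lower, beside 10.5% and 9.42% of all features, while in KO2 none passed.

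By arrangement, 2 antisense RNAs rose and 5 fell of 19 tested in overlapping head-to-head pairs, and 3 rose and 2 fell of 12 in overlapping tail-to-tail pairs, between day 4 and day 0 in WT cells, beside 24.3% and 25.4% of all features. Among the 13 tested with a promoter window that overlaps that of the partner, 2 rose and 4 fell. Both members passed in the same direction in 1 of these 13 pairs and in opposite directions in 1. Of the 10 tested whose spans do not overlap in RefSeq, 1 rose and 2 fell, namely WAC-AS1, BOLA3-AS1 and FLVCR1-AS1. Counting without strand would not mix the reads of such a pair if the counted gene models, whose annotation is not given, do not overlap either.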

How the data were processed

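Poly(A) RNA was sequenced from 12 libraries, and the labels' protocols name a stranded TruSeq mRNA kit. The authors deposited raw read counts per gene symbol, made with Bowtie2 2.1.0, HTSeq 0.6.1 and the hg19 build, per the submitters' processing notes. Neither strand setting nor annotation is given in the sources used here. The 5 summary rows of each file (no feature 29.2% to 30.5% of reads listed, ambiguous 1.17% to 1.41%, low quality 19.3% to 22.2%) were left out of library sizes and tests. Of 54435 features, 16792 passed edgeR's filterByExpr.

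Groups came from the labels. One quasi-likelihood model over 6 groups (edgeR 4.0.16, limma 3.58.1, R 4.3.3, TMM scaling, 6 residual degrees of freedom) gave each comparison, and p-values were adjusted by Benjamini-Hochberg over the 16792 features, with a threshold of 0.05. The standard error is the absolute log2 fold change over the square root of F. The mean of the clones weighs KO1 and KO2 equally. CPM were computed here from the deposited counts with TMM factors. Partners are the symbol before -AS; RefSeq gene and promoter tables (GRCh38.p14) gave names, arrangement and promoter sequence, and none of their coordinates was set beside a read. The fit was tested on simulated data with known changes. Ratios with 1 to 3 counts in a group have exact 95% counting intervals.

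The members, partner lists and marker lists were chosen with earlier results of these data known. Antisense RNAs were named by a rule: up to 8 each way that passed with at least a 2-fold change, 1 CPM and no overlap of libraries in WT cells between days or between the mean of the clones and WT; the 8 most abundant; those beside developmental transcription factors; those opposed to their partner; and those beside the count threshold. All others named, among them every antisense RNA that passed in WT cells between days or at day 4 between clones and WT, were chosen after their values were seen.

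Alternatives were RLE and upper-quartile factors, DESeq2 1.42.0, no low-count filter, a replicate block and each library left out in turn. For the mean of the clones against WT at day 4 and at day 0, the 4 KO libraries were also fitted as 1 group. That fit was not made for the difference in change between days. Where a library was left out, the lone library of its group was assumed to vary like the other groups. Figures used matplotlib 3.10.9, and intervals scipy 1.17.1. The 8 ChIP-seq samples were not analysed here.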

Additional observations from a re-analysis of the deposited data

Results flagged for a closer look

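The change between day 4 and day 0 differed between the mean of the clones and WT cells for BAIAP2-AS1 and 13 of the 81 coding partners tested, by edgeR's test of that difference. That is 16.0% of the partners, near the 13.6% of all features. The log2 difference, mean of the clones minus WT, was −0.75 for BAIAP2-AS1 (adjusted p = 0.0327).

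Lower in the clones than in WT cells by this measure were ELOVL2, a fatty acid elongase gene, by −1.61 (edgeR adjusted p = 0.00197), KIAA1984 by −1.24 (0.0394), the protease-like gene C1RL by −1.07 (0.0056) and SH3BP5 by −0.89 (0.00429). MRVI1 differed by −0.89 (0.0295), RHPN1 by −0.66 (0.0308), the RNA-binding protein gene CELF2 by −0.58 (0.00546), the cold-inducible RNA-binding protein gene CIRBP by −0.45 (0.00811) and ZSWIM8 by −0.45 (0.0200). ELOVL2 had means of 17.0 CPM in KO1, 4.98 in KO2 and 26.6 in WT cells at day 4, and of 2.13, 1.53 and 1.68 CPM in KO1, KO2 and WT cells at day 0. SH3BP5 had means of 9.92, 7.64 and 15.5 CPM in KO1, KO2 and WT cells at day 4, and of 16.1, 16.8 and 15.7 CPM at day 0. Of these 9, C1RL, CELF2, ELOVL2 and SH3BP5 kept the call under each of 17 alternatives. For the difference in change the 4 KO libraries were not fitted as 1 group, so clone differences did not enter its spread. The CIRBP call was lost without WT day 4 replicate 1 (adjusted p = 0.0502). That of ZSWIM8 was lost without WT day 0 replicate 2, WT day 4 replicate 1, KO1 day 4 replicate 2 or KO2 day 4 replicate 2 (0.0532 to 0.136). The calls of KIAA1984, MRVI1 and RHPN1 were lost without either WT day 4 library and without further single libraries (0.0568 to 0.177).

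Higher by this measure were the cholesterol transfer gene STARD4 by 0.70 (edgeR adjusted p = 0.0110), GNG12 by 0.68 (0.0183), NOP14 by 0.49 (0.0423) and RBM26 by 0.36 (0.0268). STARD4 had means of 126 CPM in KO1, 33.7 in KO2 and 34.9 in WT cells at day 4, and of 75.2, 73.3 and 64.7 CPM at day 0. Between days its mean thus rose in KO1 and fell in KO2 and in WT cells, so the clones did not move alike. Its call was lost without WT day 0 replicate 2 or WT day 4 replicate 1 (adjusted p = 0.0742 and 0.0745). GNG12 was lost without either of these (0.125 and 0.147) or KO2 day 0 replicate 1 (0.0505). NOP14 was lost without any 1 of the 4 WT libraries, the 2 KO1 day 4 libraries or the 4 KO2 libraries (0.0682 to 0.174), and RBM26 without any 1 of the same libraries other than WT day 0 replicate 1 (0.0521 to 0.164).

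At day 4, 2 partners passed in opposite directions in the clones, each set against WT, and the difference between the clones was not tested. PCOLCE differed from WT by −0.45 in KO1 (edgeR adjusted p = 0.0270) and by 0.57 in KO2 (adjusted p = 0.00288). The PCOLCE call in KO1 was lost without any 1 of the 4 libraries compared (adjusted p between 0.0571 and 0.187). RFPL1 differed from WT by 2.06 in KO1 (adjusted p = 0.000629) and by −1.86 in KO2 (adjusted p = 0.0209). It had 5.09 and 4.06 CPM in KO1 and 0.401 and 0.201 CPM in KO2, against 1.07 and 1.10 CPM in WT cells. The RFPL1 call in KO2 rests on 5 and 3 raw counts in the KO2 libraries and was lost without either WT day 4 library (0.0738 and 0.0808) or KO2 day 4 replicate 2 (0.182).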

How the results depend on the processing

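Of 340 log2 fold changes of 34 antisense RNAs recomputed, 81 were past the threshold. Over 5827 alternative values none that had passed changed sign, 174 calls were lost and 75 gained. For 44 partners, 235 calls were lost and 101 gained over 7566 values, and none changed sign. RLE factors changed no count by more than 1.5 times. With DESeq2, 9 fell in KO1 between days, 1 and 2 were lower at day 4 for the mean of the clones and for KO2, 3 pairs passed in the same and 1 in opposite directions in WT cells, and 0 passed for the difference in change between days. Without a filter on low counts, 1 was higher in the mean of the clones and 1 in KO2, 7 were lower in KO1, and 4 passed as lower for the difference in change. Upper-quartile factors gave 2 there. With the 4 KO libraries as 1 group, 0 were lower and 0 pairs passed at day 4.

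Replicate numbers were not used to pair the libraries. Deviations from group means of same-numbered libraries correlated above 0.1 in 1 of 15 pairs of groups (−0.04 to 0.15). Correlations this weak cannot exclude a shared batch. A replicate block gave 1 higher in KO2 at day 4 and 2 lower for the difference in change, and moved no other count by over 1.5 times. With 1 library left out in turn, risers and fallers between days were 6 to 13 and 5 to 14 in WT, 8 to 13 and 8 to 19 in KO1, and 5 to 9 and 9 to 13 in KO2, with 3 to 8 pairs in the same and 1 to 5 in opposite directions in WT cells. At day 4, higher and lower counts were 0 to 1 and 1 to 6 for the mean of the clones, with 0 to 1 pairs in the same direction, 0 to 4 and 1 to 7 for KO1, and 0 to 2 and 1 to 9 for KO2. At day 0 they were 0 to 4 higher for KO1 and 0 otherwise. For the difference in change, 0 to 6 were lower. With 3 counts as a floor per library, levels under 0.133 to 0.294 CPM were not detectable. Among others this touches EGFLAM-AS4, KIAA1984-AS1 and NPPA-AS1 at day 0 and RNF144A-AS1 in KO2 at day 4. DICER1-AS1 in KO1 day 4 replicate 1 and SNAI3-AS1 in WT day 0 replicate 1 were also under the floor.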
